A study of Homo sapiens with 79 samples.

Results

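The 10 genes described here encode serine/arginine-rich splicing factors (SR proteins), namely SRSF1, SRSF2, SRSF3, SRSF4, SRSF5, SRSF6, SRSF7, SRSF9, SRSF10 and SRSF11. They were taken by name, without use of any measured value, together with all 106 of their isoforms, out of 48453 genes and 185661 isoforms quantified in the series. The series measured RNA recovered by formaldehyde RNA immunoprecipitation and sequencing (fRIP-Seq) from K562 cells, an established human leukemia line with erythroid features, with no treatment named in the labels. Each of 24 proteins was immunoprecipitated with its antibody after light formaldehyde cross-linking and sonication. The panel held the RNA binding proteins ADAR, HNRNPH1, HNRNPU, HUR, IMP1 and PABP, the nuclear pore protein NUP98, the DNA binding and cohesin proteins CTCF and STAG2, and the chromatin proteins CBP, CBX3, phospho-CBX3, CHD1, CHD4, CHD7, DNMT1, EZH2, HDAC1, LSD1, PCAF, PHF8, RBBP5, SUZ12 and WDR5. There were 3 libraries for each of 22 proteins and 2 each for EZH2 and STAG2, 70 in all, and 9 libraries of input lysate in 3 sets of 3, all from cells of the same line. The study included STAG2 as a control for background recovery of RNA, but found that it reproducibly enriched a small set of transcripts, its own mRNA among them. According to the study, the libraries of a fRIP came from separate lysates made on separate days.

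SR proteins bind exonic sequences through RNA recognition motifs and recruit the splicing machinery through a domain rich in arginine and serine. Their phosphorylation by the SRPK and CLK kinases sets their import and activity. Most SR protein genes hold ultraconserved stretches that are spliced into their own mRNA as a poison exon, or kept as a retained intron. A poison exon brings in a premature stop codon, and a stop well upstream of the last exon junction marks an mRNA for nonsense-mediated decay. High levels of an SR protein favour these unproductive isoforms, so that each protein lowers its own production. RNA with retained introns is often held in the nucleus.

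The annotation places the isoforms in classes. Of the 106 isoforms, 38 were protein coding, 21 were of the nonsense-mediated decay class (here decay class), 24 of the retained intron class and 16 without a defined coding sequence, and 7 had no match in the annotation. SRSF6 has no isoform of the retained intron class, SRSF3 has 3 isoforms and SRSF5 has 20. For each gene, the isoform of each class with the highest mean over the 79 libraries is named below. In hg19 the annotation places SRSF1 at chr17:56078280-56084707 (minus strand, ENSG00000136450.8), SRSF2 at chr17:74730197-74733415 (minus strand, ENSG00000161547.10), SRSF3 at chr6:36562130-36573377 (plus strand, ENSG00000112081.12), SRSF4 at chr1:29474255-29508412 (minus strand, ENSG00000116350.11), SRSF5 at chr14:70193617-70238722 (plus strand, ENSG00000100650.11). It places SRSF6 at chr20:42086533-42094686 (plus strand, ENSG00000124193.10), SRSF7 at chr2:38970741-38978636 (minus strand, ENSG00000115875.14), SRSF9 at chr12:120899475-120933749 (minus strand, ENSG00000111786.4), SRSF10 at chr1:24290837-24307417 (minus strand, ENSG00000188529.10) and SRSF11 at chr1:70671365-70718735 (plus strand, ENSG00000116754.9).

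The following coding bases end at the premature stop codon, in capitals, of decay class isoforms that the later results turn on. They are shown 5′ to 3′ on the transcribed strand, from hg19.
SRSF3-203: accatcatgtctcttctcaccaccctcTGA
SRSF4-205: ggagaggttcggttcttacaaggaaaaTGA
SRSF6-202: gccatgacgacagcagccttttgccatTAG
SRSF7-208: cggcgaagaagaagcaggtatttatttTAA
SRSF10-215: ttcagatggctgattagtgaggggtgtTGA
The SRSF3-203 stop lies at chr6:36567602-36567631 on the plus strand, in an internal exon of 456 bases that no coding isoform of SRSF3 contains, 548 bases upstream of the last exon junction. The SRSF4-205 window, chr1:29492521-29492550 on the minus strand, ends in an exon of 175 bases outside all coding isoforms, with 603 bases from the stop to the last junction. SRSF6-202 ends its frame at chr20:42087915-42087944 on the plus strand, in an exon of 268 bases outside the coding isoform, 534 bases before the last junction. SRSF7-208 differs in kind from those before it. Its window, chr2:38976658-38976687 on the minus strand, reads out of a coding exon into a retained intron of 875 bases, and the stop stands 1138 bases before the last junction. SRSF10-215 stops at chr1:24305163-24305192 on the minus strand, in an exon of 165 bases of which 60 lie outside the coding isoforms, 490 bases before the last junction. It also keeps 3 introns of coding isoforms, 582 bases in all.

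SRSF1 and SRSF2 follow another plan, shown by the last coding bases of their decay class isoforms, whose stop is the normal one.
SRSF1-207: cgtcatagcagatctcgctctcgtacaTAA
SRSF2-208: cctgaagaggaaggagcggtgtcctctTAA
SRSF1-207 ends at chr17:56082767-56082796 and SRSF2-208 at chr17:74732243-74732272, both on the minus strand. These stops are shared with coding isoforms of the same gene, and introns are spliced out downstream of them, leaving the last junction 127 bases after the stop of SRSF1-207 and 105 bases after that of SRSF2-208. SRSF1-207 splices out 1477 bases that the coding isoform SRSF1-205 keeps as exon, and SRSF2-208 1493 bases that coding SRSF2-203 keeps. SRSF1-205, with 603 coding bases, also keeps 200 bases that coding SRSF1-201, with 744, splices out, and it ends at another stop. Part of the 1477 bases thus lies upstream of the stop of SRSF1-207. SRSF2-206, the most abundant of the retained intron class of SRSF2, also splices out 891 bases that SRSF2-203 keeps. The class names of SRSF2 thus run against their usual sense, since its coding isoform is the less spliced of these.

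The gene level in input is given as FPKM (fragments per kilobase of transcript, scaled to the mapped fragments of the library), a scale that allows genes to be compared per length. SRSF1, which also serves in mRNA export and translation, had the highest mean, 199 ± 56.4 FPKM (SD, n = 9). SRSF11 followed at 151 ± 15.3 FPKM, then SRSF7 at 135 ± 47.6 and SRSF3 at 128 ± 22.9 FPKM. SRSF9 stood at 123 ± 21.8 FPKM, SRSF10 at 118 ± 8.13, SRSF5 at 103 ± 10.0 and SRSF2 at 96.8 ± 28.8 FPKM. The lowest were SRSF4 at 56.6 ± 7.62 and SRSF6 at 49.8 ± 7.62 FPKM. Neighbours in this order overlapped in their 9 values, except SRSF2 and SRSF4, whose input ranges were separate.

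One input library stood apart. The third library of input set 2 held SRSF1 at 342 FPKM, SRSF7 at 257, SRSF3 at 185 and SRSF2 at 166 FPKM, and without it the input means of these genes were 181, 119, 120 and 88.1 FPKM. Estimated depth, in units of 1000000 fragments, was 1.82 to 55.03 in the fRIP libraries, lowest in ADAR and highest in DNMT1, and 11.4 to 28.8 in input. The erythroid genes GATA1 and TFRC had means of 82.2 and 284 FPKM in input, and the T and B cell genes CD3E and MS4A1 0.177 and 0.00592 FPKM.

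Some stretches of the members also occur in other genes, whose reads cannot be told apart by sequence. For genes on the opposite strand, strand might separate them, but its use in the quantification is not given in the sources used here. Of the 31-base stretches of SRSF9, 47.1% also occur in another gene, mostly GATC, which overlaps it on the opposite strand. The shares were 34.7% for SRSF1, mostly in a readthrough gene on the same strand, 24.2% for SRSF2, mostly in MFSD11 on the opposite strand, and 17.9% for SRSF6. They were 4.37% or less for the other genes, and 0 for SRSF4 and SRSF7. Values of SRSF1, SRSF2, SRSF6 and SRSF9 are uncertain to that extent.

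The first comparison asked which fRIPs held more or less RNA of an SR protein gene than input. Changes are differences of log2(FPKM + 1), which understates changes of low values, and all comparisons share the 9 inputs. FPKM is a share of each library, so the amount of RNA recovered was not measured. A value was called when its Benjamini-Hochberg adjusted p was under 0.05 and the change over 2-fold, in a limma fit over 25442 genes. Of the 240 values (10 genes in 24 fRIPs), 16 were called higher and 10 lower, 6.67% and 4.17%. Over all genes tested, 6.9% of values were called higher and 5.52% lower, so the shares of the members were near the background. The calls fell in 12 fRIPs. In STAG2 no gene was called by limma, with 2 of 10 at an unadjusted p under 0.05 and log2 changes from -0.01 to 0.45. Without the third library of input set 2, 18 values were called higher and 7 lower.

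**Figure D1:**
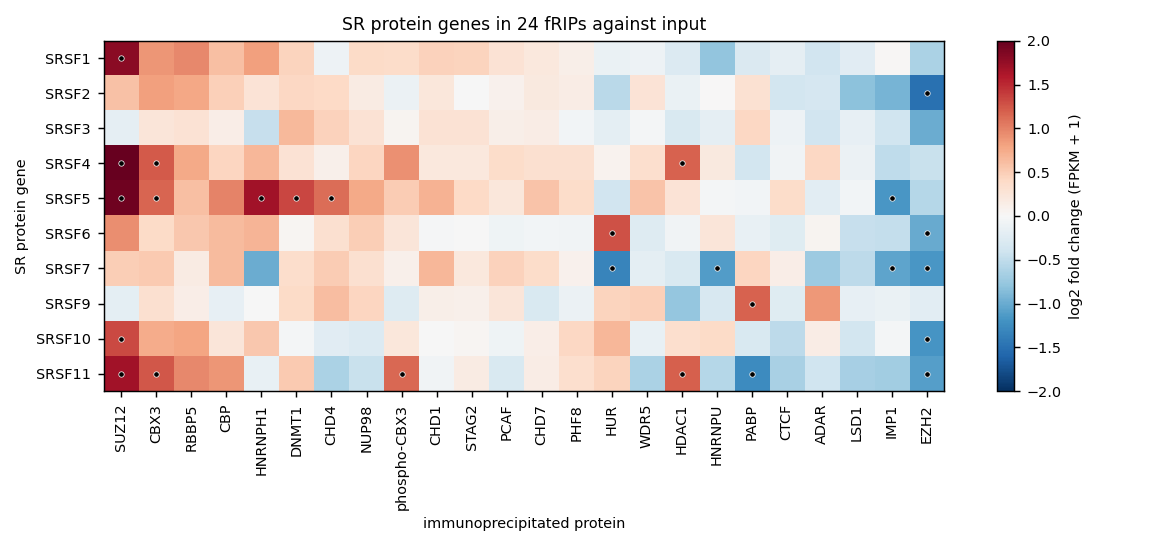
Log2 change (FPKM + 1) of the 10 SR protein genes (rows) in the 24 fRIPs (columns) against the 9 inputs; dots mark calls. SUZ12 has 5 calls, all higher, and EZH2 has 5, all lower.

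SUZ12, a core subunit of the Polycomb complex PRC2, gave the largest rises. In its fRIP 5 of the 10 genes were called higher, where 15.3% of all genes were. The 3 SUZ12 libraries held SRSF4 at 195, 241 and 304 FPKM, against 44.1 to 68.1 FPKM in the inputs (median 55.3). The log2 change was 2.09 (SE 0.13, limma adjusted p = 2.4e-21), 4.26-fold, the highest gene level change of any member in any fRIP. SRSF5, of the same structural subgroup as SRSF4, stood at 579, 265 and 412 FPKM against 88.5 to 121 FPKM in input, a log2 change of 1.95. SRSF1, at 665, 753 and 628 FPKM, was 1.81 higher on the log2 scale over inputs of 164 to 342 FPKM. For SRSF11 the SUZ12 libraries read 461, 487 and 511 FPKM against 134 to 175, a log2 change of 1.69. SRSF10, which represses splicing in its dephosphorylated form, read 247, 317 and 324 FPKM against 106 to 128, a log2 change of 1.32. Every SUZ12 library of these 5 genes was above all 9 inputs (exact permutation p = 0.00455 for each, two-sided, the smallest that 3 against 9 libraries allow).

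The remaining members moved less in SUZ12. SRSF6 had 98.1, 89.2 and 96.1 FPKM, all above input, with a log2 change of 0.92, short of the fold threshold. SRSF2 and SRSF7 had log2 changes of 0.59 and 0.49, SRSF3 had -0.18 and SRSF9 had -0.20, all with libraries that overlapped the inputs. The median over the 10 genes was 1.12, beside 0.01 over all genes.

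EZH2, the catalytic subunit of PRC2, gave the opposite sign in its 2 libraries. SRSF2, the member that stays in the nucleus, had 32.4 and 33.3 FPKM against 70.7 to 166 FPKM in input and fell by 1.49 on the log2 scale (SE 0.24, limma adjusted p = 7.6e-07). SRSF10 had 49.5 and 53.2 FPKM, SRSF11 64.1 and 74.9, SRSF7 63.5 and 51.4 and SRSF6 23.4 and 24.9 FPKM, with log2 changes of -1.18, -1.11, -1.16 and -1.003. These 5 calls of 10 stand beside 9.13% of all genes called lower in EZH2. Both EZH2 libraries of each were below all inputs (exact permutation p = 0.0182, two-sided, the smallest that 2 against 9 libraries allow). SRSF3 lay just outside the fold threshold, at -0.9998 on the log2 scale, with 58.3 and 67.1 FPKM. Against the matched input set alone 4 genes were called, and with each library centred on its median 2 were, SRSF2 and SRSF10. No share of all genes is given for these settings. The SUZ12 libraries were above both EZH2 libraries for 9 of the 10 genes, SRSF9 being the exception, and 3 against 2 libraries cannot go below an exact permutation p of 0.1.

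**Figure D2:**
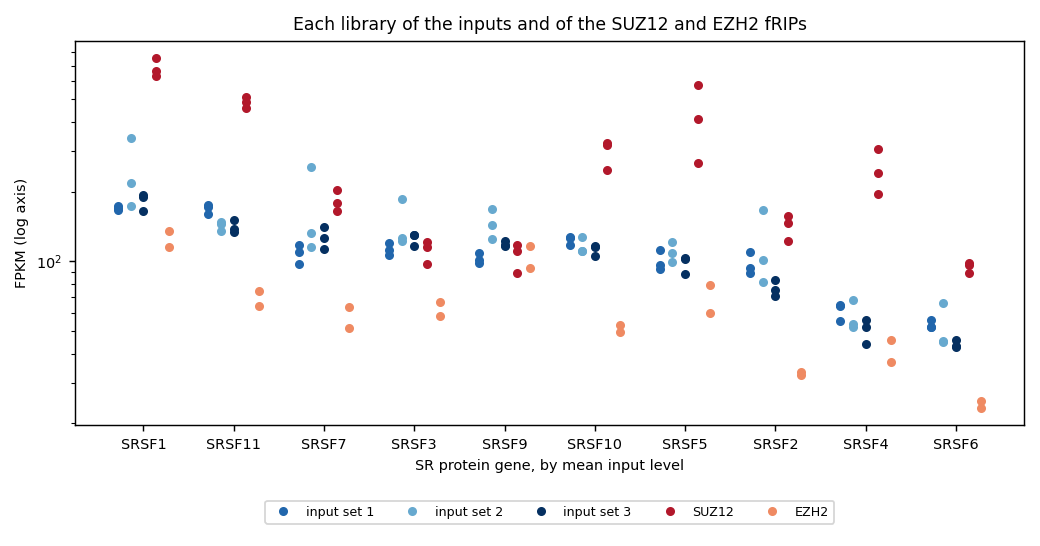
FPKM (log axis) of each member in each input library and each SUZ12 and EZH2 library. All SUZ12 libraries lie above the inputs for SRSF1, SRSF4, SRSF5, SRSF6, SRSF10 and SRSF11, and the third library of input set 2 lies high for SRSF1, SRSF7, SRSF3 and SRSF2.

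CBX3, a heterochromatin protein that is also found along active genes, had 3 of 10 genes called higher, where 7.45% of all genes were. SRSF4 stood at 138, 131 and 132 FPKM, SRSF11 at 350, 409 and 315 and SRSF5 at 247, 169 and 295 FPKM, all above input, with log2 changes of 1.23, 1.24 and 1.17. With the antibody to phosphorylated CBX3, SRSF11 was called, at 370, 325 and 308 FPKM and a log2 change of 1.14, which was 0.98 against the matched input set. In the fRIP of HDAC1, a histone deacetylase, SRSF4 (128, 141 and 118 FPKM) and SRSF11 (371, 346 and 321 FPKM) were called higher, with log2 changes of 1.19 and 1.19, 2 of 10 genes beside 8.42% of all. After centring these were 0.90 and 0.91, under the threshold.

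SRSF5 and SRSF11 were called in the most fRIPs, SRSF5 higher in 5 and lower in 1, and SRSF11 higher in 4 and lower in 2. HNRNPH1, a splicing regulator that binds runs of G, held SRSF5 at 340, 283 and 376 FPKM, a log2 change of 1.68, which was 0.95 after centring. DNMT1 held it at 258, 245 and 280 FPKM (log2 change 1.34) and CHD4 at 184, 333 and 183 FPKM (1.12). In IMP1, an mRNA binding protein of the cytoplasm, SRSF5 was lower, at 48.2, 43.8 and 43.8 FPKM, with a log2 change of -1.16. All these SRSF5 libraries were outside the input range. SRSF7 was the other of 2 genes called in IMP1 (-1.06), beside 10.5% of all genes called lower there, and after centring neither passed, at -0.70 and -0.60.

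HUR, which binds U-rich and AU-rich stretches, held members in opposite directions. SRSF6 had 135, 120 and 108 FPKM against 42.8 to 66.1 FPKM in input, a log2 change of 1.27 (SE 0.13, limma adjusted p = 1.0e-12). SRSF7, an mRNA export adaptor like SRSF3, had 54.5, 47.6 and 52.1 FPKM against 97.7 to 257 FPKM in input, and fell by 1.32 on the log2 scale. The groups did not overlap for either gene. SRSF7 was also lower in HNRNPU, a nuclear matrix protein, at 51.9, 47.5 and 83.3 FPKM (-1.12), but at -0.86 against the matched input set. It was called lower in 4 fRIPs and higher in none.

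PABP, which coats the poly(A) tails of mRNA, also held members in opposite directions. SRSF9 stood at 262, 292 and 277 FPKM against 98.9 to 168 FPKM in input, 1.19 higher on the log2 scale. SRSF11 stood at 62.4, 60.6 and 64.1 FPKM against 134 to 175 FPKM, and fell by 1.26 on the log2 scale (-0.76 after centring). Neither gene overlapped the inputs. SRSF3 was the one member without a call at the gene level, with log2 changes from -0.9998 in EZH2 to 0.65 in DNMT1.

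The second comparison asked how the isoform classes shared each gene. In input, coding isoforms held 81.7% ± 4.55 (SD, n = 9) of the summed isoform FPKM of SRSF1 and 80.2% ± 4.53 of SRSF6, but 35.4% ± 6.18 of SRSF11. Decay class isoforms held 19.8% ± 4.53 of SRSF6, 18.3% ± 4.64 of SRSF7, 16.2% ± 4.23 of SRSF1 and 15.8% ± 5.14 of SRSF3, and means of 4.62% or less in the other genes. The retained intron class held 32.2% ± 8.82 of SRSF9, 28.0% ± 4.70 of SRSF5 and 22.0% ± 4.68 of SRSF10. It held 81.4% ± 1.37 of SRSF2, where the name of the class misleads, as given above. These are shares of estimates that the authors' program assigned to overlapping isoforms. Intron retained in finished mRNA and unspliced precursor RNA cannot be told apart in them.

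**Figure D3:**
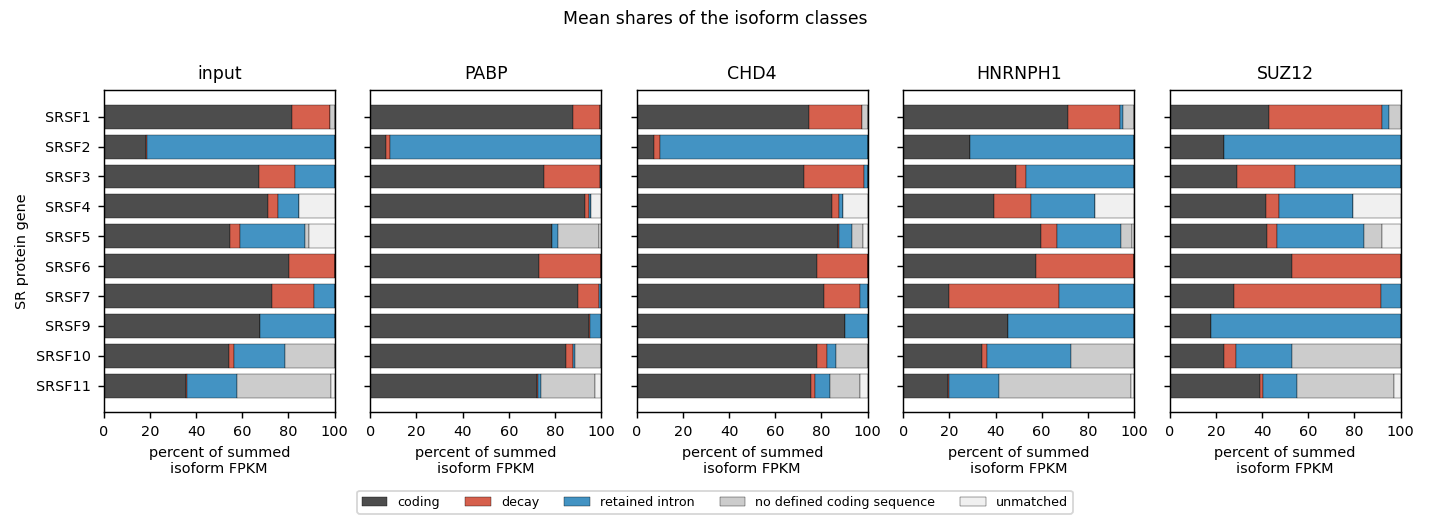
Mean share (percent) of each isoform class in the summed isoform FPKM of each member, in the inputs and in 4 fRIPs. The retained intron class is narrow in PABP and CHD4 for most members, and SRSF2 runs the other way.

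The log2 ratio of the retained intron class to the coding class was fitted over all 6489 genes with both, 9 members among them. Of the 216 values, 43 were called higher and 42 lower, 19.9% and 19.4%, where 15.9% and 14.2% of the values of all genes were. These ratios moved across all genes in many fRIPs, so each count is given with its background. Counts after centring are the exception, and no background is given for them. In STAG2 none was called by limma, with 2 of 9 at an unadjusted p under 0.05.

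In PABP 7 of the 9 ratios were lower, beside 54.4% of all genes. The retained intron share of SRSF3 was 0.246%, 0.389% and 0.184% in the 3 libraries, against 11.3% to 26.3% in input, a log2 change of the ratio of -4.48 (SE 0.24, limma adjusted p = 5.7e-25). SRSF10 had 0.817%, 0.662% and 0.607%, against 17.8% to 29.7%, a ratio change of -4.34. SRSF11 had 1.13%, 1.63% and 1.06%, against 17.97% to 25.4%, a ratio change of -4.02. The retained intron isoforms of these 3 genes were thus a small part of each gene in the PABP libraries. The share of SRSF9 was 5.22%, 4.83% and 4.88% against 22.3% to 45.3%, and that of SRSF5 2.29%, 2.82% and 3.67% against 20.7% to 33.9%, again with no overlap. The median ratio change over the 9 members was -3.08, beside -1.18 over all genes, and 6 members were called lower against the matched input set (49.0% of all genes) and 6 after centring.

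SRSF2 went the other way in PABP, where its ratio was 1.57 higher. Coding SRSF2-203, which keeps the intron sequence after the stop, was at 0.767, 0.572 and 0.824 FPKM in PABP, against 9.42 to 17.8 FPKM in input, a log2 change of -2.97 (SE 0.21). SRSF2-206, which splices in that region, had 56.5, 55.5 and 75.6 FPKM and overlapped the inputs of 23.9 to 87.2 FPKM. In CHD4, SRSF2-203 was lower likewise, at 2.21, 2.12 and 2.30 FPKM. Read by structure, the less spliced isoform of SRSF2 was the one that fell in PABP. In HNRNPH1 these isoforms had other directions, with SRSF2-203 at 32.7, 31.1 and 33.1 FPKM (log2 change 1.30) and SRSF2-206 at 0.459, 2.05 and 1.15 FPKM (-4.22). The retained intron class as a whole still held 71.3%, 68.7% and 73.1% of SRSF2 in HNRNPH1, against 79.2% to 83.3% in input. Other isoforms of that class therefore held most of its share there, and the fall was of SRSF2-206 alone more than of the class.

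Against all 9 inputs, lower retained intron ratios were called for 5 or more members in 4 other fRIPs. In CHD4, a chromatin remodeler, 7 of 9 were called lower (47.8% of all genes), in the acetyltransferase PCAF 6 (36.9%), in NUP98 6 (21.5%) and in WDR5, a subunit of histone methyltransferase complexes, 5 (27.3%). In CHD4 the retained intron isoform SRSF3-201 had 2.01, 3.63 and 2.31 FPKM against 13.6 to 31.6 in input, and SRSF10-213 had 3.37, 5.12 and 2.36 FPKM against 17.7 to 31.4. In PCAF SRSF11-214 had 5.25, 3.90 and 6.03 FPKM against 24.4 to 43.5, a log2 change of -2.49. All of these libraries lay below input. Libraries of NUP98, PCAF and WDR5 were taken as paired with their inputs by number, from the data, since no label states it. Against the matched input set SRSF3 and SRSF11 in NUP98 had ratio changes of -0.87 and -0.97, and SRSF3 in WDR5 -0.98, each short of the fold threshold, and the replicate number as a block left these values and calls as they were. Against the matched sets 7 of 9 were called lower in CHD4 (55.6% of all genes), 6 in PCAF (31%), 4 in NUP98 (14.1%) and 4 in WDR5 (21.1%). IMP1 then had 6 called lower (48.9%) and LSD1, a histone demethylase, 5 (41.7%), in place of 3 (39.4%) and 2 (27.9%) against all inputs. After centring, 5 of 9 were called lower in CHD4, 4 in PCAF, 2 in WDR5 and 0 in NUP98.

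Against all 9 inputs, higher ratios were called for 5 or more members in 4 fRIPs. HNRNPH1 had 6 of 9, beside 60.0% of all genes, SUZ12 6 (47.1%), CBX3 5 (39.3%) and RBBP5, a partner of WDR5, 5 (15.8%). The retained intron share of SRSF7 was 33.7%, 31.2% and 32.5% in HNRNPH1, against 4.49% to 15.0% in input, a ratio change of 3.68. The share of SRSF3 was 46.7%, 46.0% and 44.4% in SUZ12 and 43.8%, 46.0% and 40.9% in CBX3, with ratio changes of 2.61 and 2.31. In RBBP5 the share of SRSF5 was 64.2%, 58.0% and 56.3%, against 20.7% to 33.9% in input, a ratio change of 2.87. All these libraries were above the inputs. Against the matched input sets none of the 4 reached 5 members, with 3 in HNRNPH1 (51.6% of all genes), 4 in SUZ12 (35.8%), 4 in CBX3 (23.9%) and 4 in RBBP5 (18.6%). CBP, an acetyltransferase, then had 5 (30.5%), in place of 1 (25.5%) against all inputs. The median over the members was 1.36 in HNRNPH1 and 1.35 over all genes. In SUZ12 the medians were 1.36 and 0.92, in CBX3 1.07 and 0.77, and in RBBP5 1.20 and 0.42. After centring, 1 member was called higher and 2 lower in HNRNPH1, 4 and 2 in SUZ12, 4 and 2 in CBX3, and 1 and 0 in RBBP5.

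ADAR, which edits adenosines in paired RNA, held much of SRSF9 as SRSF9-203. This isoform is a single exon of 1704 bases, 1234 of them in introns of the coding isoform SRSF9-201. It stood at 141, 133 and 163 FPKM, against 14.6 to 20.6 FPKM in input, a log2 change of 3.00 (SE 0.12, limma adjusted p = 1.9e-30) or 7.98-fold. Coding SRSF9-201 had 35.0, 34.1 and 43.0 FPKM in ADAR against 51.9 to 117 in input, all below, with a log2 change of -0.98 that was short of the fold threshold. The retained intron share of SRSF9 was 82.5%, 84.1% and 82.1% in ADAR. SRSF9-203 was also higher in HUR (47.0, 48.6 and 49.5 FPKM) and HNRNPU (40.5, 42.6 and 41.6 FPKM), and lower in DNMT1 (7.28, 7.04 and 5.61 FPKM). The ADAR libraries were the shallowest of the series, and the part of depth in this result was not tested. As given above, 47.1% of the 31-base stretches of SRSF9 also occur in another gene, mostly GATC on the opposite strand. How far these fall in SRSF9-203 was not tested, so reads of GATC may be counted in its values.

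SRSF1-202, the isoform of SRSF1 that the annotation puts in the retained intron class, was near 0 in input, at most 1.29 FPKM. It lies at the upstream end of the gene, chr17:56083603-56084707 on the minus strand, and keeps 0 whole introns of coding isoforms. Of its 689 bases, 101 lie in introns of the most abundant coding isoform of SRSF1. DNMT1 libraries held it at 19.4, 28.9 and 39.2 FPKM, a log2 change of 4.24 (SE 0.36), SUZ12 libraries at 18.6, 21.5 and 21.6 and CBX3 libraries at 13.4, 12.9 and 11.04 FPKM. It was called higher in 10 fRIPs and lower in none. In HDAC1 and phospho-CBX3, both among the 10, at least 1 library overlapped the inputs. The study found that coverage in DNMT1 and SUZ12 tended towards the upstream ends of transcripts. Whether the higher values of SRSF1-202 reflect its intron bases or its place in the gene was not tested.

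**Figure D4:**
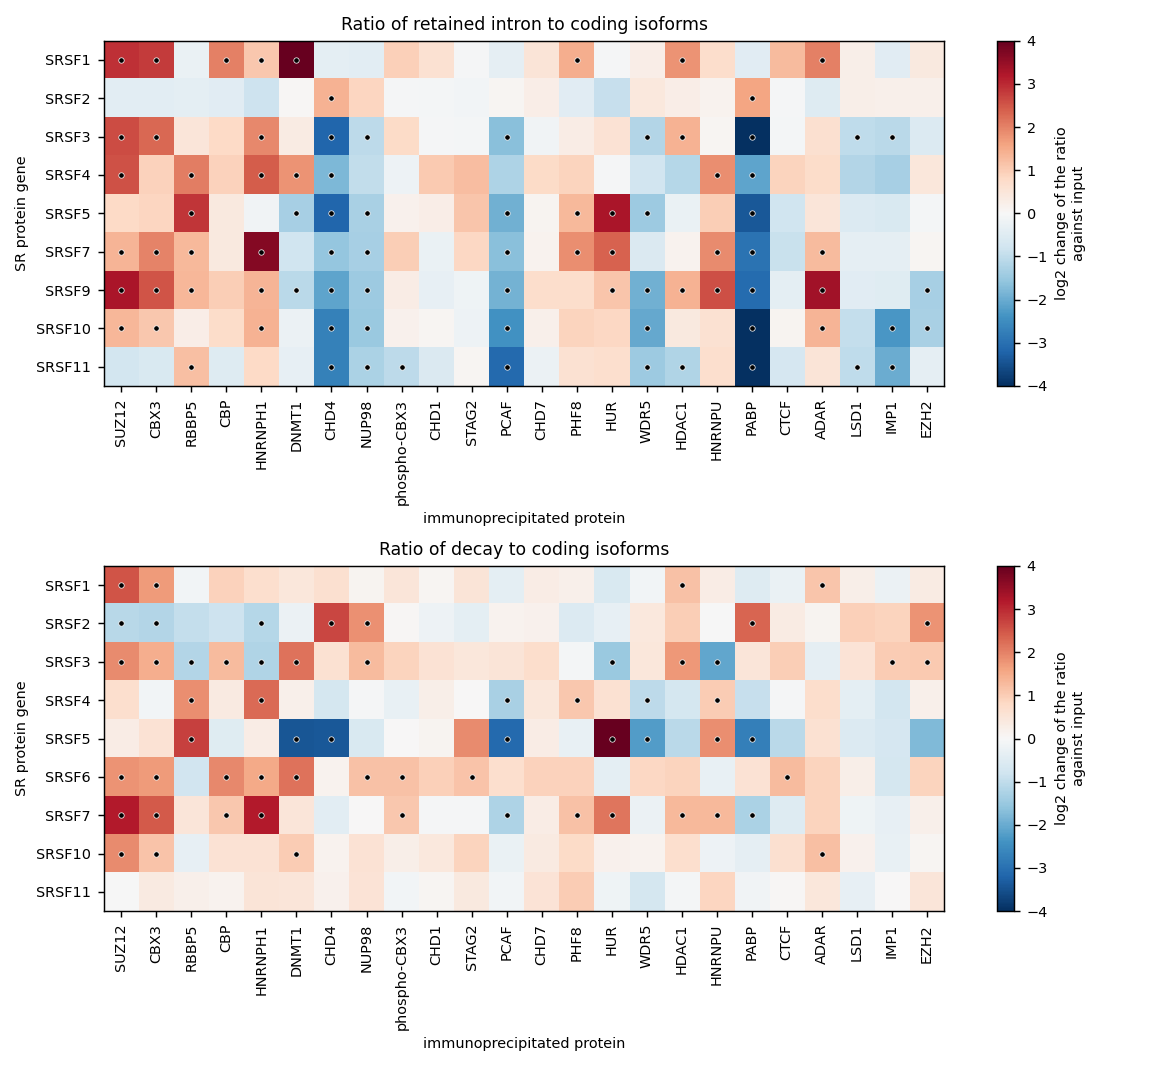
Log2 change against input of the ratio of retained intron to coding isoforms (top) and of decay class to coding isoforms (bottom) for the members (rows) in the 24 fRIPs (columns); dots mark calls. Lower values of the upper ratio line up in CHD4, NUP98, PCAF, WDR5 and PABP, except for SRSF1 and SRSF2, and the rows of the lower ratio differ between genes.

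The ratio of the decay class to the coding class was fitted over 4263 genes, with 9 members. SRSF9 did not pass the filter on low values, its decay class isoform SRSF9-206 being at most 0.805 FPKM in input. Of the 216 values 45 were called higher and 16 lower, 20.8% and 7.41%, beside 9.1% and 6.18% over all genes. SUZ12 had 5 of 9 called higher (29.4% of all genes) and CBX3 5 of 9 (15.6%). SRSF6 and SRSF7 were called higher in 9 fRIPs each and SRSF3 in 8, and SRSF11 was called in none. Against the matched input set, SRSF7 in PCAF went from -1.25 to -0.92 and SRSF4 in WDR5 from -1.05 to -0.87, and neither was called, with or without the replicate number as a block. SRSF6 in CHD1 went from 0.96 to 1.02 against the matched set and was called once the block was added.

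SRSF3-203, the poison exon isoform with the TGA printed above, spread widely along the panel. In input it had 11.4 to 28.6 FPKM (median 18.5), with a mean of 13.0 FPKM in input set 1, 19.3 in set 2 and 27.7 in set 3. DNMT1, the maintenance DNA methyltransferase, held it at 80.2, 78.0 and 112 FPKM, a log2 change of 2.16 (SE 0.26, limma adjusted p = 7.2e-10). NUP98 held 44.3, 53.0 and 57.3 FPKM and CHD4 38.5, 47.7 and 48.6 FPKM. All libraries of these 3 fRIPs were above the inputs.

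At the other end were RNA binding proteins. HNRNPH1 had SRSF3-203 at 3.19, 1.73 and 7.57 FPKM, HNRNPU at 4.64, 1.97 and 5.68 and HUR at 5.80, 6.27 and 4.60 FPKM, with log2 changes of -2.12, -2.06 and -1.62. All were below the inputs, and against the matched input sets the changes were -1.59, -1.53 and -2.14, also called. The decay class share of SRSF3 was 40.9%, 45.6% and 48.1% in DNMT1 and 3.95%, 1.89% and 4.99% in HNRNPU, against 10.6% to 24.5% in input. STAG2 held SRSF3-203 at 23.8 and 41.0 FPKM, overlapping the inputs.

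**Figure D5:**
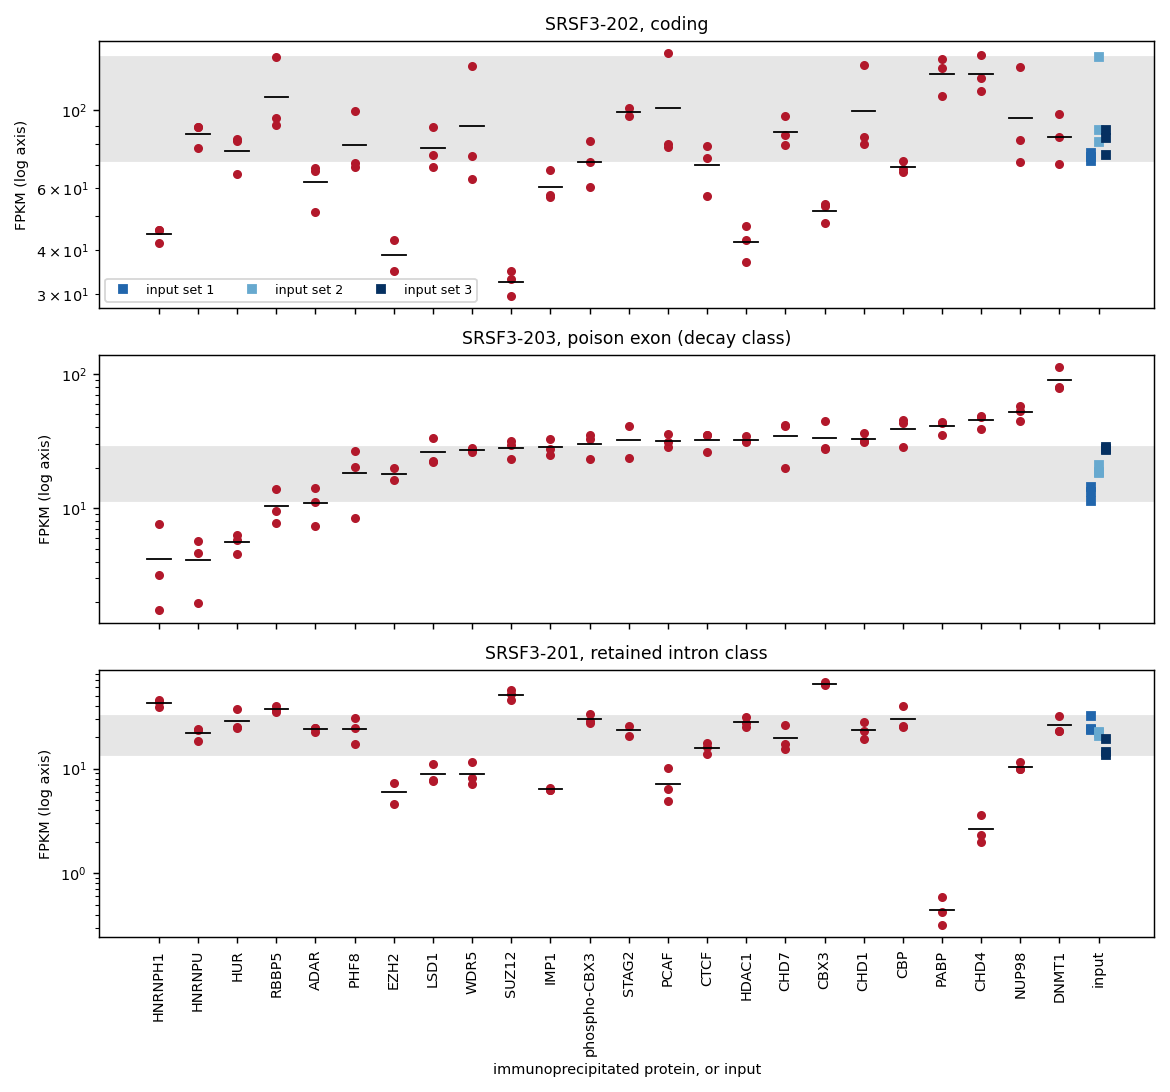
FPKM (log axis) of the 3 isoforms of SRSF3 in every library; circles are fRIP libraries, bars their mean, squares the inputs by set, and the grey band the input range. HNRNPH1, HNRNPU and HUR lie below the band for SRSF3-203 and DNMT1 above it, while PABP lies far below the band for SRSF3-201.

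The estimates of the retained intron isoform and the poison exon isoform of SRSF3 took opposite directions in PABP, CHD4 and HNRNPH1. SRSF3-201 runs to chr6:36568658, past the poison exon of SRSF3-203 at chr6:36567598-36568053. Of its 1518 bases, 1061 lie in introns of coding SRSF3-202. These 1061 bases equal the stretch from the first base of that exon to the end of SRSF3-201, which places the whole exon in both isoforms. How its reads were divided between them was not tested. In PABP SRSF3-201 had 0.430, 0.600 and 0.321 FPKM, against 13.6 to 31.6 FPKM in input, a log2 change of -3.91. SRSF3-203 had 43.0, 43.9 and 34.8 FPKM there, above all inputs (1.04, but 0.53 against the matched input set). In HNRNPH1 SRSF3-201 was higher, at 45.7, 43.0 and 38.9 FPKM (1.002, and 0.68 against the matched set), and SRSF3-203 lower. Coding SRSF3-202 was lower in SUZ12, at 33.0, 29.6 and 34.9 FPKM against 71.8 to 142 FPKM in input, and fell by 1.36 on the log2 scale, with no overlap.

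SRSF6-202, the poison exon isoform of SRSF6, had 7.45 to 11.7 FPKM in input. SUZ12 libraries held 48.4, 37.9 and 48.0 FPKM, a log2 change of 2.11 (SE 0.17, limma adjusted p = 3.7e-16). CBP, an acetyltransferase and coactivator, held 40.7, 33.3 and 41.2, HNRNPH1 47.0, 25.3 and 32.1, and CBX3 31.4, 23.4 and 34.7 FPKM. It was called higher in 7 fRIPs, all of whose libraries were above the inputs, and lower in IMP1 (-1.05, and -0.89 against the matched set). The decay class share of SRSF6 was 49.8%, 50.9% and 61.1% in DNMT1, against 14.3% to 27.03% in input. STAG2 had a share of 31.2% and 40.7% and a ratio change of 1.14 (SE 0.28, limma adjusted p = 0.009), which was called, so the background control was above input too.

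SRSF7-208, whose frame ends in the retained intron printed above, was highest in SUZ12, at 90.1, 87.3 and 92.3 FPKM against 7.42 to 15.6 FPKM in input, a log2 change of 2.91 (SE 0.19). CBX3 held 58.5, 65.7 and 66.6 and CBP 42.0, 41.6 and 48.4 FPKM, and PABP 0.637, 0.186 and 0.230 FPKM, a log2 change of -3.18. Its low level in PABP sets it beside the retained intron isoforms above, though it stands in the decay class. Coding SRSF7-202 was low in HNRNPH1 (4.11, 2.43 and 0.497 FPKM) and HUR (10.6, 7.57 and 0.0411 FPKM), against 43.8 to 165 FPKM in input, with log2 changes of -4.57 and -3.91. The decay class share of SRSF7 was 43.2%, 51.8% and 47.7% in HNRNPH1, against 11.8% to 24.5% in input.

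SRSF1-207, which splices downstream of the normal stop, had 98.5, 139 and 88.4 FPKM in SUZ12 against 12.9 to 28.9 FPKM in input, a log2 change of 2.38. It was also called in HNRNPH1, with 1.39 but 0.98 against the matched input set, and in HUR, with -1.12 but -0.56 against that set. SRSF2-208, of the same plan, was at most 0.520 FPKM in input and had 4.1999, 3.09 and 2.67 FPKM in CHD4, 2.26, 2.06 and 1.10 in PABP and 1.12, 1.62 and 2.54 in NUP98. These spliced isoforms did not share one direction across fRIPs. SRSF4-205 had 12.5, 16.4 and 14.01 FPKM in HNRNPH1, 10.9, 11.7 and 18.1 in SUZ12 and 9.90, 9.93 and 10.8 in RBBP5, against 1.77 to 3.72 FPKM in input, with log2 changes of 2.10, 2.01 and 1.66. SRSF10-215 had 15.8, 13.3 and 12.2 FPKM in SUZ12, against 1.81 to 3.84 FPKM, with no overlap.

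SRSF5 had the widest range of decay ratios, from -3.43 in DNMT1 to 4.82 in HUR. SRSF5-211, whose exon with the stop holds 822 of its 1030 bases outside the coding isoforms, had 17.0, 14.5 and 30.8 FPKM in HUR, against 1.49 to 7.70 FPKM in input. Coding SRSF5-217 was at 4.26, 3.71 and 3.91 FPKM in HUR, against 27.8 to 47.3 FPKM, a log2 change of -2.91. In HNRNPH1 SRSF5-217 stood at 161, 155 and 183 FPKM and in CHD4 at 135, 249 and 120 FPKM, above all inputs. SRSF5-211 was estimated near 0 in every library of EZH2, PABP and PCAF, where such an estimate can be a failed one, so the low ratios of SRSF5 are uncertain. At the donor site of an intron that SRSF5-212 keeps, chr14:70235959-70235988 on the plus strand, the capitals mark the first intron bases.
SRSF5-212: cagctggcagGTttgttgaaatacagtttt
SRSF5-212 had 1.57, 1.46 and 1.16 FPKM in PABP and 35.2, 36.1 and 46.5 in RBBP5, against 10.7 to 20.8 FPKM in input, below and above the inputs.

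Over single isoforms, 98 of the 106 passed the filter on low values. Of their 2352 values, 295 were called higher and 232 lower, 12.5% and 9.86%, beside 7.29% and 5.47% for all 104506 isoforms tested. In PABP 14 of the 24 retained intron isoforms were called lower and 1 higher, and of 33 coding isoforms 4 were lower and 5 higher, where 16.1% of all isoforms were lower and 9.69% higher. In HNRNPH1 15 of the 24 retained intron isoforms were called higher and 2 lower, beside 20.8% and 11% of all isoforms. In SUZ12 18 of these 24 and 11 of 18 decay class isoforms were called higher, beside 21.3% of all. These backgrounds are over isoforms of every class, and a background within each class was not computed. By the class ratios, another measure, retained intron was lower in 54.4% of all genes in PABP, and higher in 60.0% in HNRNPH1 and 47.1% in SUZ12. The decay ratio was higher in 29.4% of all genes in SUZ12. The class counts are thus not shown to be particular to the members. STAG2 had 3 isoforms called higher and 3 lower, beside 1.98% and 2.82% of all.

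The study placed ADAR, HNRNPH1, HNRNPU and HUR at the intron end of its panel and CHD4, DNMT1, IMP1 and LSD1 at the exon end. The mean of the first group was compared with that of the second. Since the study chose these groups from these libraries, a difference in intron content is no independent evidence. At the gene level no member was called by limma, with log2 differences from -0.86 for SRSF7 to 0.71 for SRSF6, although 6 of 10 had an unadjusted p under 0.05. All genes had a median of 0.27, and after centring 4 members were called lower, with no share of all genes given. The ratio of retained intron to coding isoforms was called higher for 7 of 9 members, beside 66.7% of all genes. It was higher by 3.14 for SRSF9 (SE 0.17, limma adjusted p = 5.0e-26), 3.07 for SRSF7, 2.61 for SRSF10, 2.56 for SRSF5, 2.17 for SRSF11, 2.04 for SRSF3 and 1.86 for SRSF4. SRSF1 had 0.07 and SRSF2 -0.99. After centring, beside a median of 1.51 over all genes, 3 members were called higher and 2 lower, again with no share of all genes given.

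The ratio of decay class to coding isoforms split the family in that contrast, with 3 of 9 called higher (21.4% of all genes) and 2 lower (10.2%). SRSF5 was higher by 3.91 (SE 0.34), SRSF7 by 1.98 and SRSF4 by 1.55 on the log2 scale. The log2 difference was -2.36 for SRSF3 (SE 0.18, limma adjusted p = 2.2e-17) and -1.42 for SRSF2. SRSF7-208 and SRSF5-211 hold intron sequence joined to a coding exon, while the poison exon of SRSF3-203 is an exon of its own, as is that of SRSF4-205.

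Other genes of the pathway were counted from 3 lists. Of the 168 gene level values of 7 kinase and import genes, 21 were called higher and 4 lower, 12.5% and 2.38%, where 6.9% and 5.52% of the values of all genes were. SUZ12 held 6 of the 7 higher, beside 15.3% of all genes, among them the kinases CLK1 with a log2 change of 2.74, CLK4 with 2.21, CLK2 with 1.97 and SRPK1 with 1.90. The import receptor TNPO3 had 0.30 and was not called. Of 336 values of 13 SR related splicing factors, in 14 rows since SRSF8 has a pair, 34 were called higher and 13 lower, 10.1% and 3.87%. In SUZ12, with that background of 15.3%, 8 of the 14 were higher, led by PNN with 3.09, SRRM1 with 2.56 and RBM39 with 2.34, and in EZH2 4 were lower (9.13% of all genes), PNN, SRRM1, SREK1 and U2AF1. Of 240 values of 10 nonsense-mediated decay factors, 22 were called higher and 7 lower, 9.17% and 2.92%. In SUZ12 5 of the 10 were called higher, beside 15.3% of all genes. Among them were SMG1 with 2.29, UPF2 with 1.92, UPF3A with 1.33 and UPF3B with 1.08. In EZH2 2 of these 10 were higher and 0 lower, beside 10.5% and 9.13% of all genes.

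Across the 24 fRIPs and input, each member was set against the mean profile of the other members, as a description over 25 group means. Pearson's r was 0.87 for SRSF2, 0.77 for SRSF1 and SRSF5, 0.53 to 0.70 for the other genes but SRSF9, and 0.02 for SRSF9. Among other genes with at least 10 FPKM in input, the closest to the mean profile of the 10 members were PON2 (r = 0.80), CSTF3 (0.80), PTBP2 (0.79), HNRNPDL (0.78) and EIF4A2 (0.78).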

How the data were processed

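RNA from 70 fRIP libraries and 9 input libraries of K562 cells was depleted of ribosomal RNA and sequenced. The authors aligned the reads with TopHat to hg19 and made the deposited gene and isoform FPKM tables with the Cufflinks suite (Cuffdiff and Cuffnorm), with replicates kept apart. Their fold changes, p-values and calls were not used. The deposited mean FPKM of their comparisons served to find which input set each protein was matched to. Here, log2(FPKM + 1) was fitted with limma 3.58.1 (trend) in R 4.3.3, over features that reached 1 FPKM in 2 or more libraries, in 1 fit of all 79 libraries, with Benjamini-Hochberg adjustment within each comparison. Class ratios were log2 of (class sum + 1) over (coding sum + 1). Isoform classes came from GENCODE v44 lifted to hg19, and 172143 of 185661 isoforms matched by identifier. Of the 29 named isoforms 22 have another version there than in the files, so classes and structures may differ from those quantified. Depth was estimated from the smallest step of the FPKM values, as 1 fragment. The scripts were tested on simulated data. The members, lists and tests were chosen with earlier results of these data known. Named isoforms are those with the highest mean of each class, and pathway genes named are called members of the lists, with TNPO3 added. The values of 1 list gene are not reported here.

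Alternatives were matched input sets, single input sets, library centring, other pseudocounts and filters, other class definitions, leaving out libraries and a replicate block. Among fRIPs and inputs of set 2, same-numbered libraries of different groups deviated together (mean r = 0.32 over 45 pairs). Different numbers had a mean r of -0.155. Deviations from a group mean sum to 0, so this follows from the first value and is no separate evidence. For same-numbered pairs with an input, the lowest r was 0.129 in CHD1, 0.132 in NUP98, 0.138 in PCAF and 0.171 in WDR5. In RBBP5 it was 0.0877. CHD1, NUP98, PCAF and WDR5 were taken as paired, from the data since no label states a shared batch.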

Additional observations from a re-analysis of the deposited data

Results flagged for a closer look

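Within the 9 inputs, 11 of 39 genes and isoforms had a sample far from the others, where chance gives about 1 in 20 for each. The 39 are not independent, since isoforms are parts of their genes and all come from the same libraries. The gene level values below were all of the third library of input set 2. An excess over chance was thus not measured. The values far from the others, in FPKM, were 342 for SRSF1, 166 for SRSF2, 185 for SRSF3 and 257 for SRSF7 at the gene level. Among isoforms they were 212 for SRSF1-205, 87.2 for SRSF2-206, 142 for SRSF3-202, 52.3 for SRSF4-201, 165 for SRSF7-202, 0.805 for SRSF9-206 and 2.26 for SRSF11-211.

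The intron group and the exon group of proteins differed by the test of the difference itself (limma) in 12 class ratios. For retained intron to coding isoforms the log2 differences were 1.86 for SRSF4, 2.04 for SRSF3, 2.17 for SRSF11, 2.56 for SRSF5, 2.61 for SRSF10, 3.07 for SRSF7 and 3.14 for SRSF9. For decay class to coding isoforms they were 3.91 for SRSF5, 1.98 for SRSF7, 1.55 for SRSF4, -1.42 for SRSF2 and -2.36 for SRSF3.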

How the results depend on the processing

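Values rest on 2 or 3 libraries a protein, on isoform estimates for overlapping transcripts and on inputs that differ between sets. Counts are of calls higher and lower over the 24 fRIPs unless the contrast of intron and exon group is named. They stand without the share over all features, and so show only how the calls move between settings. With input set 2 only, gene level lower calls were 17 and decay ratio lower calls 10, and with input set 1 only, retained intron ratio higher calls were 23. With retained intron and decay classes summed, decay ratio lower calls were 34, and in the contrast the ratio had 6 higher and 1 lower for the decay genes and 1 lower for the retained intron genes. Centring gave in the contrast 4 lower calls at the gene level, 26 lower isoform calls, and 3 higher and 2 lower retained intron ratios. A pseudocount of 0.1 gave 28 lower isoform calls and 1 lower retained intron ratio in the contrast, and 0.5 also gave 1. Leaving out 1 replicate gave 0 to 1 lower retained intron ratios in the contrast, 16 to 18 higher and 7 to 12 lower gene level calls over the fRIPs, 38 to 47 and 36 to 44 for the retained intron ratio, 35 to 52 and 13 to 18 for the decay ratio, and 270 to 307 and 184 to 241 for isoforms. Gene level lower calls were 7 against matched input sets and 6 with the replicate block within them. The replicate block over all numbered libraries gave 16 higher and 9 lower gene calls, 300 and 230 isoform calls, 44 and 42 retained intron ratio calls and 44 and 16 decay ratio calls. For the paired proteins there were 18 higher and 34 lower isoform calls against all inputs, 11 and 27 against the matched set, and 13 and 30 with the block added to it. Between all inputs and the block within matched sets, no call of a gene or ratio of these proteins changed beyond those given above. The direction turned for 6 of 124 single values and the cause was not tested. After centring the retained intron ratio of SRSF1 in PABP was 0.76. With the classes summed that of SRSF3 in the contrast was -0.17. Relative to the other isoforms of its gene, SRSF4-201 in SUZ12 was -1.72, SRSF10-215 in EZH2 0.34, SRSF11-211 in SUZ12 -0.14 and SRSF11-214 in SUZ12 -0.71.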
